A study of Mus musculus with 165 samples.

Results

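The genes described here are Hmgcs1, Idi1, Fdps, Fdft1, Sqle, Cyp51 and Srebf2, the messages of 6 enzymes of cholesterol synthesis and of the transcription factor that governs them. They were taken as the rows of a brain and a liver count table whose Ensembl identifiers map to these 7 symbols. They are 7 of 55471 gene identifiers in each table, and all 7 had enough reads to be tested in both tissues (18711 genes tested in the brain, 15579 in the liver). The group had been proposed as genes of cholesterol synthesis and uptake, but none of the 7 is an uptake receptor.

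The libraries came from male mice of the strain C57BL/6J/Ukj that were kept for aging alone, with no treatment or altered allele named for any group. Livers were sequenced from 16 mice at 3 months, 16 at 9 months, 16 at 15 months, 17 at 24 months and 18 at 28 months. Brains were from 15, 16, 16, 17 and 18 mice of the same ages, a brain of the 3-month mouse numbered 6 being not analysed here. RNA was extracted with QIAzol and chloroform, enriched for polyA and made into stranded libraries in 3 preps, each of which held every age in both tissues. A brain and a liver that share an age and a mouse number in the labels were treated as 1 mouse, which the labels do not state outright and on which the comparisons within a mouse rest. The brain was labelled only as brain, without a region, and a single sex and strain limit what the groups stand for.

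Cells make cholesterol from acetyl-CoA through mevalonate, isoprenoid diphosphates, squalene and lanosterol. SREBP-2, the protein of Srebf2, sits in the endoplasmic reticulum membrane while sterols are plentiful. When sterols fall it is carried to the Golgi, cut, and sent to the nucleus, where it raises transcription of nearly every enzyme of the pathway, of receptors that take up lipoproteins, and of its own gene. The liver makes cholesterol for lipoproteins and bile acids and adjusts its synthesis to feeding and time of day, whereas the brain makes its own cholesterol, much of it for myelin, behind a barrier that plasma lipoproteins hardly cross.

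Along the pathway, Hmgcs1 encodes the cytosolic synthase that joins acetyl-CoA and acetoacetyl-CoA into HMG-CoA. Idi1 encodes the isomerase that interconverts isopentenyl and dimethylallyl diphosphate, and Fdps the synthase that condenses them into farnesyl diphosphate. Fdft1 encodes squalene synthase, the first enzyme committed to sterols. Sqle encodes squalene epoxidase, a rate-limiting step, and Cyp51 the lanosterol demethylase. On GRCm38, with the GENCODE M21 annotation, Hmgcs1 lies at chr13:119690379-119708260 on the plus strand, Idi1 at chr13:8885501-8892451 on the plus strand and Sqle at chr15:59315077-59331192 on the plus strand. Srebf2 lies at chr15:82147181-82205379 on the plus strand, Fdps at chr3:89093588-89101959 on the minus strand, Fdft1 at chr14:63145150-63179578 on the minus strand and Cyp51 at chr5:4081145-4104746 on the minus strand. All 7 are protein coding.

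The stretches upstream of 3 of these genes are shown because the members moved together in the liver and SREBP-2 is known to bind a short sterol regulatory element near such genes. RefSeq promoter sequences (GRCm38.p6) could be matched for 4 of the 7, namely Hmgcs1, Idi1, Cyp51 and Srebf2. The letters TCACCNCA, searched on both strands of the 250 bases before the RefSeq start, were found 1 time each in Hmgcs1, Cyp51 and Srebf2 and not in Idi1, and 3.607% of 32851 such windows of all genes held them. Distances are counted from the start of the RefSeq promoter entry, which differs from the GENCODE gene start given above. In Hmgcs1 the match lay 137 to 130 bases before that start (printed stretch chr13:119690184-119690251, plus strand), in Cyp51 88 to 81 bases before it (chr5:4104748-4104815, minus strand) and in Srebf2 162 to 155 bases before it (chr15:82147077-82147144, plus strand). Capitals mark the matching letters, each sequence being written 5′ to 3′ on the strand of its gene.
Hmgcs1: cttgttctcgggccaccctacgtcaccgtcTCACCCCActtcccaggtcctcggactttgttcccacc
Cyp51: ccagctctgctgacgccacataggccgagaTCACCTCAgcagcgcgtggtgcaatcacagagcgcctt
Srebf2: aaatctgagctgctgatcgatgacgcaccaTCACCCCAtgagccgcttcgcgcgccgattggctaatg
The letters CCAAT, the core bound by the SREBP partner NF-Y and also searched on both strands, occurred 3 times in Hmgcs1, 2 times in Idi1 and 1 time each in Cyp51 and Srebf2, and 33.85% of all windows held at least 1. These matches are a description of the sequence and were not tested for binding.

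Total counts, in mega (M), ranged from 11.5 to 73.4 in the 82 brain libraries (median 37.6) and from 5.82 to 57.5 in the 83 liver libraries (median 32.9). Levels are given in CPM, the usual depth-scaled count, here relative to the TMM-scaled library size, and a gene is called changed where its Benjamini-Hochberg adjusted p in edgeR's quasi-likelihood test, over all genes tested in the tissue, was below 0.05. In the brain 2 libraries stood apart, 28-month replicate 15 and 24-month replicate 13. Their median rank correlations with the other brains were 0.8658 and 0.9532, against 0.9832 to 0.9943 for the remaining 80. The members' brain calls from 3 to 24 and from 3 to 28 months are given with and without them. Marker and other gene lists of the brain are given with all 82 libraries unless a setting is named. Among the livers the values ran from 0.9191 to 0.988 without such a gap. The 7 lowest livers, up to 0.9459, were 2 of 24 months and 5 of 28 months. Without these 7, edgeR called 7 members from 3 to 24 months and 3 from 3 to 28 months, as with all livers. From 24 to 28 months it then called 2, Hmgcs1 and Fdps, in place of 4, with Fdft1 at -0.39 ± 0.16 (adjusted p = 0.0741) and Idi1 at -0.53 ± 0.22 (adjusted p = 0.0836). In bulk tissue, fewer cells of a type and less RNA per cell cannot be told apart.

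In the liver all 7 genes were higher at 24 months than at 3 months. At 28 months Hmgcs1, Idi1, Fdps and Fdft1 were lower than at 24 months, while Sqle, Cyp51 and Srebf2 were not called; whether the enzymes' change differed from that of Srebf2 was not tested. Those 4 calls became 0 within preps 2 and 3, with a clock score, and without livers low in the clock gene Arntl. The log2 changes of the 7 were -0.65 to -0.05 with all livers, -0.88 to -0.23 in prep 2, -0.68 to -0.08 with the clock score and -0.57 to -0.08 without those livers. In prep 3 they were -0.30 to 0.19. From 3 to 24 months Sqle rose 2-fold in mean level, the other enzymes rose 1.58-fold (Cyp51) to 1.79-fold (Hmgcs1), and Srebf2 rose 1.43-fold. Tested over all 5 ages together, 7 of 7 members changed, where 71.5% of all tested liver genes did.

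**Figure D1:**
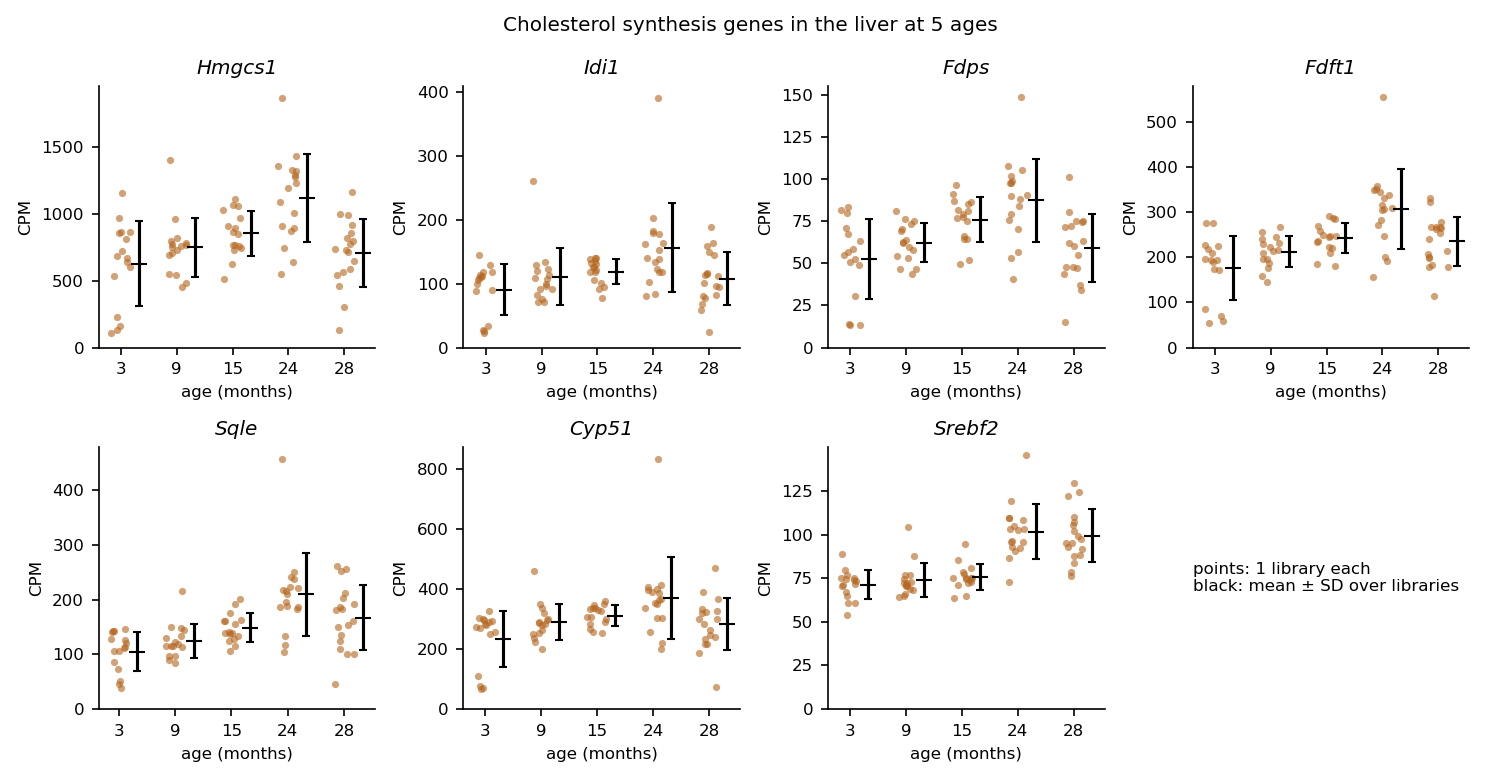
Levels of the 7 genes in liver libraries, in CPM on a linear axis from 0, against age in months. Each point is 1 library and the black marks are the mean ± SD; the enzymes peak at 24 months and Srebf2 stays high at 28 months.

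Hmgcs1, the most abundant of the 7 per kilobase of exon, had a lowest, median and highest level of 109.1, 677.5 and 1159 CPM at 3 months (n = 16), 553.1, 1193 and 1868 CPM at 24 months (n = 17) and 132.2, 732 and 1162 CPM at 28 months (n = 18). Ages overlapped, but 9 of 17 livers at 24 months lay above the highest liver at 3 months, and 1 of 18 at 28 months did. The log2 fold change from 3 to 24 months was 0.84 ± 0.21 (SE, edgeR adjusted p = 0.000486), and that from 24 to 28 months was -0.65 ± 0.20 (adjusted p = 0.0156).

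Idi1 ran from 23.51 through a median of 106.9 to 144.9 CPM at 3 months, from 80.96 through 139.5 to 391.2 CPM at 24 months and from 23.82 through 106.6 to 189.5 CPM at 28 months. The 24-month livers above the highest 3-month liver numbered 8 of 17. Idi1 rose by 0.78 ± 0.20 from 3 to 24 months on the log2 scale (SE, edgeR adjusted p = 0.000834) and changed by -0.54 ± 0.19 from 24 to 28 months (adjusted p = 0.0444). Its counting is uncertain to the extent that reads are shared with the paralog Idi2.

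Fdps had 13.1, 55.98 and 83.17 CPM as its lowest, median and highest level at 3 months, 40.84, 89.7 and 148.4 CPM at 24 months and 15.13, 61.22 and 101.1 CPM at 28 months. Above the highest liver of 3 months were 11 of 17 livers at 24 months and 1 of 18 at 28 months. The change was 0.74 ± 0.18 from 3 to 24 months (log2, SE, edgeR adjusted p = 0.000424) and -0.56 ± 0.17 from 24 to 28 months (adjusted p = 0.0171). Of its exonic bases 26.71% are shared with the predicted gene Gm43738 on the same strand, so its level depends on how such reads were counted.

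Fdft1 spanned 55.24 to 275.9 CPM with a median of 193.8 at 3 months, 156.9 to 553.6 CPM with a median of 307.6 at 24 months and 113.4 to 330.6 CPM with a median of 247.2 at 28 months. At 24 months 12 of 17 livers exceeded every 3-month liver, against 3 of 18 at 28 months. Its log2 change was 0.80 ± 0.15 from 3 to 24 months (SE, edgeR adjusted p = 6.24e-06), 0.40 ± 0.14 from 3 to 28 months (adjusted p = 0.0125) and -0.39 ± 0.14 from 24 to 28 months (adjusted p = 0.0465). The cathepsin gene Ctsb overlaps 18.31% of its exonic bases on the opposite strand, and since the strand setting of the counting is not given in the sources used here, reads of the pair may not be separated.

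Sqle ran from 37.59 through a median of 112.3 to 147 CPM at 3 months, from 103.8 through 210.8 to 456.7 CPM at 24 months and from 45.98 through 170.9 to 261.7 CPM at 28 months. More livers left the young range than for any other enzyme, with 14 of 17 at 24 months and 12 of 18 at 28 months above the highest 3-month liver. It rose by 0.99 ± 0.16 from 3 to 24 months (log2, SE, edgeR adjusted p = 6.29e-07) and by 0.65 ± 0.16 from 3 to 28 months (adjusted p = 0.000334). The difference between 24 and 28 months, -0.34 ± 0.16, was not called (adjusted p = 0.128).

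Cyp51 had 66.29, 275.9 and 326.5 CPM as its lowest, median and highest level at 3 months, 200.7, 364.5 and 833.1 CPM at 24 months and 74.23, 290.9 and 468.4 CPM at 28 months. Above the young range were 12 of 17 livers at 24 months and 5 of 18 at 28 months. It rose by 0.65 ± 0.17 from 3 to 24 months (log2, SE, edgeR adjusted p = 0.000776), and the value of -0.39 ± 0.16 from 24 to 28 months missed the threshold (adjusted p = 0.0843).

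Srebf2, the regulator, was the least variable member of the liver. Its lowest, median and highest levels were 54.01, 72.33 and 88.97 CPM at 3 months, 72.63, 102.8 and 145.3 CPM at 24 months and 76.45, 96.45 and 129.6 CPM at 28 months. Every liver of 24 months (17 of 17) and of 28 months (18 of 18) lay above the 3-month median, and 15 of 17 and 13 of 18 lay above the highest 3-month liver. It rose by 0.52 ± 0.06 from 3 to 24 months (log2, SE, edgeR adjusted p = 3.69e-10) and by 0.47 ± 0.06 from 3 to 28 months (adjusted p = 1.11e-09), with -0.05 ± 0.06 between 24 and 28 months (adjusted p = 0.64). The step fell late in life, between 15 and 24 months, where it rose by 0.42 ± 0.06 (adjusted p = 5.86e-07).

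Counted by comparison, no member was called in the liver between 3 and 9 months with edgeR, where 4.69% of all tested genes were called in either direction, or between 9 and 15 months, where 0.0514% were. DESeq2 and limma voom also called 0 of 7 in both, and 0 of 7 had an unadjusted p below 0.05 in edgeR. From 3 to 15 months 2 of 7 were higher, against 3.06% of all genes, namely Sqle at 0.50 ± 0.16 (adjusted p = 0.0415) and Fdft1 at 0.46 ± 0.15 (adjusted p = 0.0395). Neither was called without the low count filter (adjusted p = 0.0701 and 0.0692) or within any prep. Sqle was not called with the clock score (adjusted p = 0.0522), nor Fdft1 with limma voom (adjusted p = 0.0706) or with only the 2 ages fitted (adjusted p = 0.122). From 15 to 24 months 2 of 7 were higher, against 21.6% of all genes, with Sqle at 0.49 ± 0.16 (adjusted p = 0.0129) beside Srebf2. From 3 to 24 months 7 of 7 were higher, against 25% of all genes, with a median log2 change of 0.779 where the median of all tested genes was -0.01. From 3 to 28 months 3 of 7 were higher (Sqle, Fdft1 and Srebf2), against 31.9% of all genes, so that share is close to the background; the other 4 had values of 0.17 to 0.26. None of the 7 was lower at 28 than at 3 months, where 30% of all genes were. From 24 to 28 months 4 of 7 were lower, against 9.13% of all genes.

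**Figure D2:**
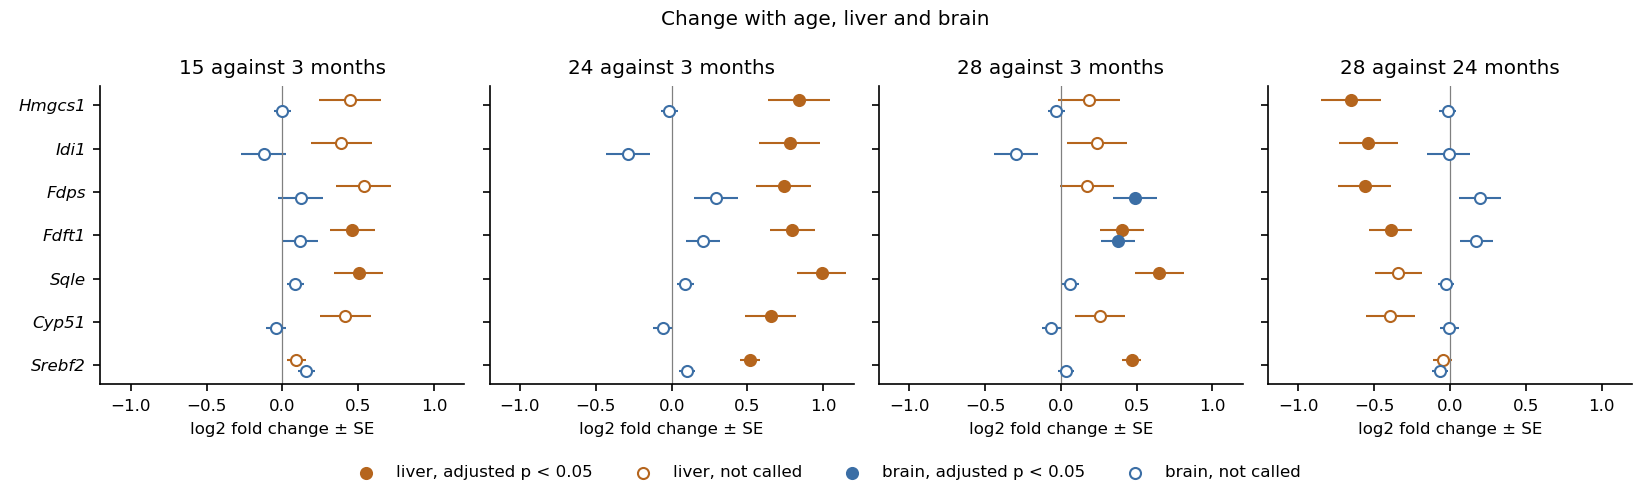
Change of each gene with age as log2 fold change ± SE from edgeR, liver in brown and brain in blue, for 15, 24 and 28 against 3 months and for 28 against 24 months. Filled points have an adjusted p below 0.05; all 7 liver points are filled at 24 against 3 months, and Srebf2 sits near 0 at 28 against 24 months.

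The liver values were also read within each prep; whether the age differences differed between preps was not tested. In prep 1 the mean of Fdft1 was 190.5, 222.7, 235.3, 361.9 and 233.6 CPM at 3, 9, 15, 24 and 28 months. In prep 2 it was 187.3, 193.1, 235.7, 307 and 193.5 CPM, and in prep 3 it was 148.1, 216.9, 260.2, 259.1 and 270.4 CPM. The mean of Fdft1 was thus highest at 24 months in preps 1 and 2 and at 28 months in prep 3. From 3 to 24 months all 7 genes had values above 0 in each prep, with log2 changes of 0.49 to 1.16 in prep 1 (4 called), 0.50 to 0.85 in prep 2 (3 called) and 0.52 to 1.12 in prep 3 (5 called). From 24 to 28 months the values were -0.96 to -0.03 in prep 1 (4 called), -0.88 to -0.23 in prep 2 (0 called) and -0.30 to 0.19 in prep 3 (0 called). Between 3 and 28 months they were -0.08 to 0.54 in prep 1 (1 called), -0.29 to 0.31 in prep 2 (1 called) and 0.58 to 1.23 in prep 3 (5 called). The preps held 4 to 7 livers of each age.

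Some livers lay at 1 end of the range for every enzyme. At 3 months replicate 10 was the lowest liver for all 6 enzymes, at 28 months replicate 17 was, and at 24 months replicate 5 was the highest for all 6. In replicate 10 at 3 months Hmgcs1 had 109.1 CPM and Srebf2 60.84 CPM, and in replicate 5 at 24 months they had 1868 and 145.3 CPM. The coefficient of variation of the 6 enzymes was 34.4% to 50.8% at 3 months, 16.2% to 40% at 9 months, 10.9% to 19.7% at 15 months, 28.3% to 44.7% at 24 months and 23.4% to 38.4% at 28 months, and that of Srebf2 was 9.61% to 15.3%. Leaving out 1 library at a time, the 7 calls from 3 to 24 months and the 3 calls from 3 to 28 months held in 51 of 51 fits.

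The decrease from 24 to 28 months was less stable for some members. Hmgcs1 and Fdps were called in 51 of 51 such fits, Idi1 in 33 (log2 change -0.59 to -0.37, adjusted p 0.0209 to 0.169), Fdft1 in 30 (-0.44 to -0.32, adjusted p 0.0174 to 0.109) and Cyp51 in 2, without 24-month replicate 13 or 28-month replicate 15. Idi1 lost its call without any 1 of the 24-month replicates 2, 3, 5, 9, 11, 12, 14 and 17 or of the 28-month replicates 2, 3, 5, 6, 7, 9, 11, 12, 14 and 17. Fdft1 lost it without 3-month replicate 7 or 12, without 24-month replicate 2, 3, 5, 7, 9, 11, 12, 14, 15 or 17, or without 28-month replicate 2, 5, 6, 7, 9, 10, 11, 14 or 17.

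Clock genes moved in the same comparison. Of 7 genes of the repressor and output arm of the circadian clock 6 were higher at 28 than at 24 months, against 6.18% of all liver genes. Of 3 activator genes 3 were lower, against 9.13% of all liver genes. At 28 months 8 of 18 livers had under 10 CPM of the activator Arntl, where 0 livers of the other ages did. The summed level of the repressor arm was 97.41 to 593.9 CPM at 3 months (median 161.4), 56 to 409.1 CPM at 24 months (median 179.2) and 123.8 to 800.8 CPM at 28 months (median 402.1). Without those 8 livers the members' log2 changes from 24 to 28 months were -0.57 to -0.08 and 0 of 7 were called, against -0.65 to -0.05 with all livers. With a clock score as a covariate they were -0.68 to -0.08, also with 0 called. From 3 to 24 months 1 of 7 and 1 of 3 clock genes were lower, against 24% of all liver genes. All 7 members were called there with the clock score. Leaving out the 8 livers of 28 months removed no library of 3 or 24 months, so the 7 calls kept under that setting carry no information on the clock.

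Markers of other cell types and feeding genes were also read in the liver. Of all tested liver genes 25% were higher and 24% lower at 24 than at 3 months, and 31.9% higher and 30% lower at 28 months. Markers of liver macrophages, of T and NK cells and of B cells were higher at 24 and at 28 months than at 3 months for 4 of 4 genes each. Summed macrophage markers were 236.7 to 851.7 CPM at 3 months (median 301.5), 356.3 to 1129 CPM at 24 months (median 539.4) and 381 to 3815 CPM at 28 months (median 763.9). Summed T and NK markers were 1.38 to 16.31 CPM, 3.253 to 66.27 CPM and 6.165 to 31.43 CPM at these ages, and summed B cell markers 5.216 to 20.03 CPM, 19.97 to 476.5 CPM and 12.8 to 266 CPM. Of 4 stellate cell markers 3 were higher at both ages, with sums of 215.4 to 312.3, 312.7 to 501.2 and 358 to 494.5 CPM. Hepatocyte markers, which define the tissue, summed to 72810 to 112700 CPM at 3 months, 66310 to 145600 CPM at 24 months and 38750 to 140100 CPM at 28 months. Of 9 genes that respond to fasting 3 were lower at 24 than at 3 months, near the 24% of all genes. At 28 months 2 were higher and 5 lower than at 3 months. With a fasting score as a covariate 7 of 7 members were called from 3 to 24 months, with log2 changes of 0.51 to 1.07. From 3 to 28 months 5 were called in place of 3, with log2 changes of 0.41 to 0.76 over the 7. From 24 to 28 months 2 were called in place of 4, with log2 changes of -0.59 to -0.05. The part of feeding and of the cell types in the members' changes was not tested.

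The enzymes varied together from liver to liver. After the means of age and prep were removed, Pearson's r of log2 CPM over the 83 livers was 0.859 to 0.973 for the 15 pairs of enzymes and 0.425 to 0.599 for the 6 pairs of an enzyme with Srebf2. These correlations share libraries and library sizes and are given as a description. The genes most like the members by mean r with the 7 were Msmo1 (0.853), Lss (0.845), Dhcr7 (0.835), Nsdhl (0.819) and Acat2 (0.803). Msmo1, Lss, Dhcr7 and Nsdhl encode enzymes between squalene epoxide and cholesterol, and Acat2 the cytosolic thiolase that supplies acetoacetyl-CoA.

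**Figure D3:**
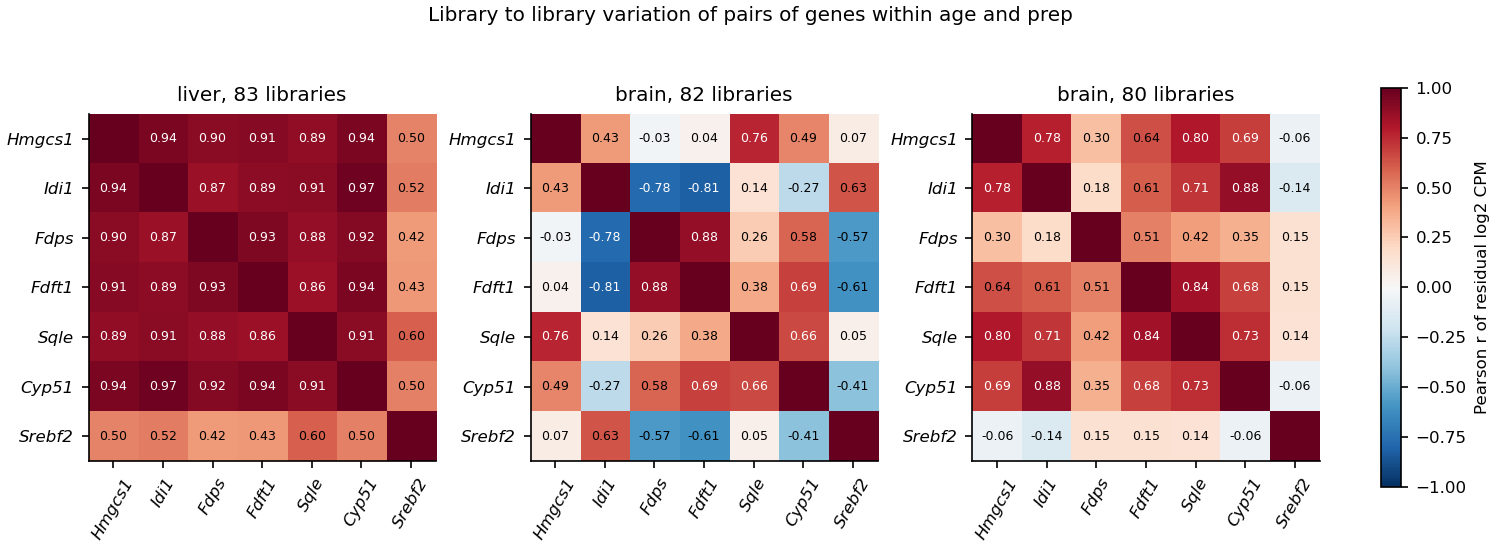
Pearson's r of log2 CPM for each pair of the 7 genes, taken on the residuals from age and prep means, in 83 livers, 82 brains and the 80 brains without the 2 that stood apart. Red is positive and blue negative; the enzyme block is uniformly red in the liver, and the negative brain values of Idi1 with Fdps and Fdft1 are present only with all 82 libraries among these 3 panels.

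Other genes of sterol metabolism, in lists chosen with earlier results known, were read in the same fits. Of the 4 other tested enzymes from acetyl-CoA to isopentenyl diphosphate, 4 were higher at 24 than at 3 months (median log2 change 0.665), 1 was higher at 28 than at 3 months and 2 were lower at 28 than at 24 months. The 1 still higher at 28 months was Mvk, mevalonate kinase, at 0.58 ± 0.15 (edgeR adjusted p = 0.00045). Of 9 other enzymes from squalene epoxide to cholesterol, 5 were higher at 24 months (median 0.575) and 5 were lower at 28 than at 24 months. At 28 months 4 of the 9 were higher and 2 lower than at 3 months, against 31.9% and 30% of all liver genes, with Msmo1 at 0.57 ± 0.18 and Lss at 0.43 ± 0.16.

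Messages of the proteins that hold, move and cut SREBP changed in both directions. Of 5 tested, 1 was higher and 2 were lower at 28 than at 3 months, shares near those of all liver genes (31.9% and 30%). There Insig2, a retention protein, stood at -0.77 ± 0.12 (edgeR adjusted p = 5.52e-08), the escort Scap at -0.50 ± 0.10 (adjusted p = 1.5e-05) and the site-2 protease Mbtps2 at 0.18 ± 0.06 (adjusted p = 0.00483). Of 10 fatty acid synthesis genes, which the related factor SREBP-1c drives, 1 was higher and 1 lower at 24 than at 3 months. At 28 months 7 of the 10 were lower than at 3 months, against 30% of all liver genes, and 3 were not called, with a median of -0.702. Among them malic enzyme Me1 had -2.09 ± 0.23, the desaturase Scd1 -1.03 ± 0.26 and Thrsp -0.84 ± 0.25.

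Genes of cholesterol efflux, uptake and conversion were read from 3 to 28 months, where 31.9% of all liver genes were higher and 30% lower. Of 9 genes of efflux and esterification 7 were higher and 1 lower, led by the esterifying enzyme Soat1 (1.35 ± 0.18), the transporter Abcg1 (1.22 ± 0.17) and Mylip (0.71 ± 0.08), which targets lipoprotein receptors for degradation. Of 7 genes of uptake and intracellular transport 4 were higher and 1 lower, with Lrp8 at 1.45 ± 0.41 from a mean of 0.2575 CPM, Vldlr at 1.10 ± 0.22 and the lysosomal carrier Npc2 at 0.66 ± 0.07. Of 6 sterol hydroxylases 2 were higher and 3 lower, with the bile acid enzymes Cyp7b1 at -1.57 ± 0.19 and Cyp8b1 at -1.31 ± 0.20 and the oxysterol enzyme Ch25h at 1.45 ± 0.44 from a mean of 0.213 CPM. Of 7 enzymes that use isoprenoid diphosphates for other products 3 were lower, namely Pdss2 (-0.66 ± 0.06), Dhdds (-0.21 ± 0.07) and Coq2 (-0.14 ± 0.04). Macrophages are known for Soat1, Abcg1 and Ch25h, and the rise of their markers over the same ages is given above; its part in these values was not tested.

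**Figure D4:**
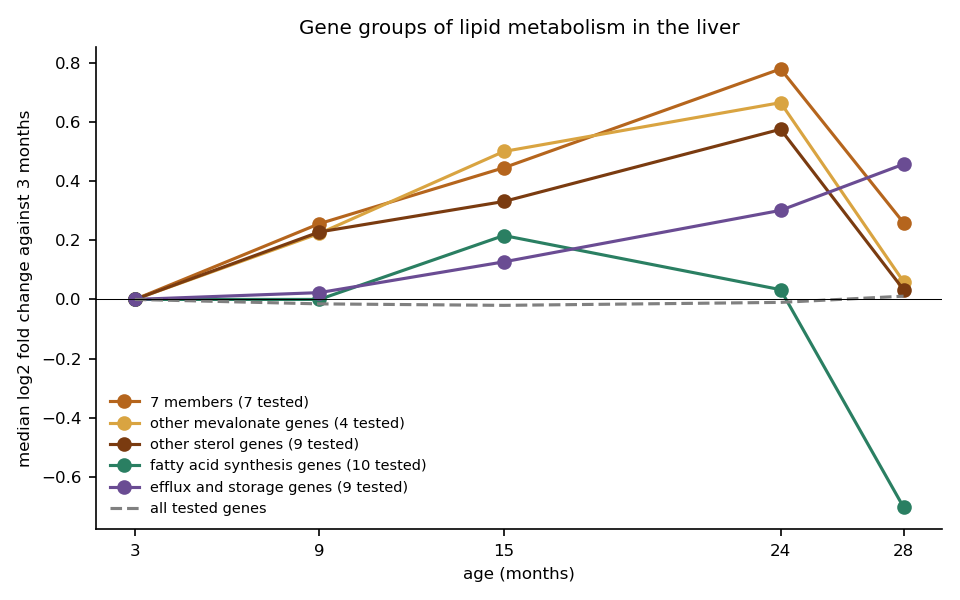
Median log2 fold change against 3 months of 5 gene groups in the liver, by age in months to scale; the dashed line is the median of all tested genes. The 7 members and the other synthesis genes peak at 24 months, efflux and storage genes go on to 0.457 and fatty acid synthesis genes reach -0.702 at 28 months.

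In the brain edgeR called 2 of the 7 genes from 3 to 28 months, Fdps and Fdft1, both higher, and 1 library, 28-month replicate 15, set much of the size of that change. With only the 2 ages fitted edgeR called 0, with Fdps at 0.47 ± 0.19 (adjusted p = 0.0891) and Fdft1 at 0.36 ± 0.16 (adjusted p = 0.113). With all ages fitted DESeq2 called 2, and limma voom with quality weights called 5, with Fdps, Fdft1 and Srebf2 higher and Idi1 and Cyp51 lower, at log2 changes of -0.28 to 0.23 over the 7. Over all 5 ages together 2 of 7 members were called, the same pair, where 20.6% of tested brain genes were (adjusted p = 0.0393 for Fdps and 0.0274 for Fdft1).

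**Figure D5:**
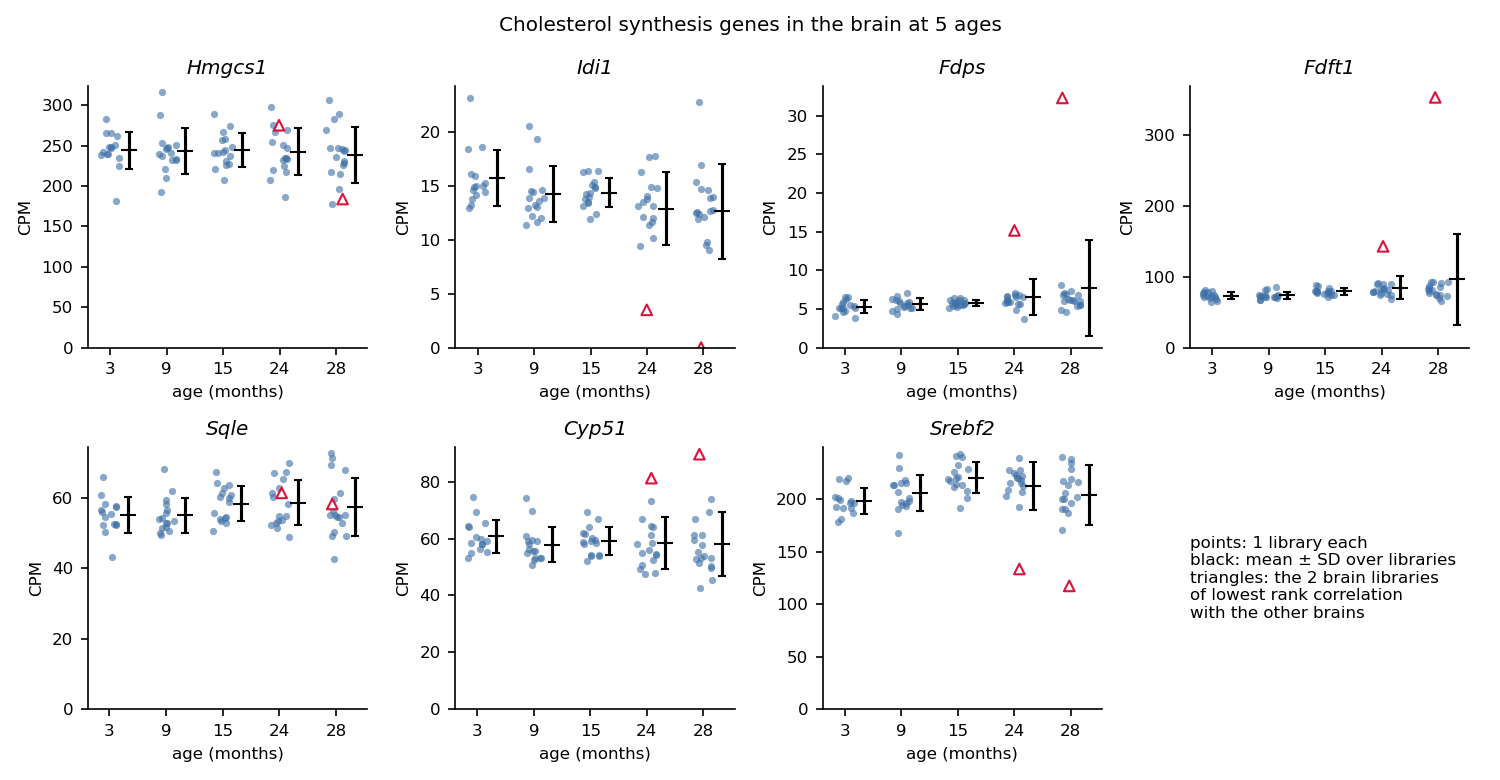
Levels of the 7 genes in brain libraries, in CPM on a linear axis from 0, against age in months. Points are single libraries, black marks the mean ± SD, and red triangles the 2 libraries with the lowest rank correlation; in Fdps and Fdft1 these reach 32.28 and 352.6 CPM and in Idi1 they reach 0 counts.

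Fdft1 in the brain ran from 63.97 through a median of 73.32 to 80.81 CPM at 3 months (n = 15) and from 65.73 through 81.9 to 352.6 CPM at 28 months (n = 18). Ages overlapped, and 10 of 18 brains at 28 months lay above the highest brain of 3 months. The log2 change was 0.38 ± 0.11 (SE, edgeR adjusted p = 0.00767) with all libraries and 0.15 ± 0.04 (adjusted p = 0.00271) without the 2 that stood apart.

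Fdps ran from 3.848 through 5.172 to 6.598 CPM at 3 months and from 4.624 through 6.125 to 32.28 CPM at 28 months. Of the 18 brains at 28 months 7 lay above the highest of 3 months and 16 above their median. It changed by 0.49 ± 0.14 (log2, SE, edgeR adjusted p = 0.00731) with all libraries and by 0.23 ± 0.07 (adjusted p = 0.00531) without the 2. Leaving out 28-month replicate 15 alone gave 0.24 for Fdps and 0.15 for Fdft1, and both were called in 50 of 50 fits that left out 1 library.

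The library from the brain of 28-month replicate 15 departed in opposite directions for different members. It had 352.6 CPM of Fdft1, 32.28 CPM of Fdps and 89.7 CPM of Cyp51, each the highest of its age, and 117.3 CPM of Srebf2, the lowest. Idi1 had 0 counts there, which allows up to 0.345 CPM (3 counts, for counting error only). The library had 11.5 M counts, the fewest of the brains, and 8.5 CPM of Arntl. Its 10 most abundant genes held 12.51% of counts, the highest share of the brains, and mitochondrially encoded genes held 2.998%, the lowest. Genes with at least 10 counts numbered 14823, the fewest of the brains. In 24-month replicate 13, the other library that stood apart, Fdft1 reached 142.7 CPM, Fdps 15.15 CPM and Idi1 3.497 CPM, and Srebf2 was at 133.4 CPM, again the lowest of its age.

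The other 5 brain members were not called by edgeR from 3 to 28 months with all libraries. Mean levels were 244.4 ± 22.9 and 238 ± 34.4 CPM for Hmgcs1 (SD, n = 15 and 18), 55.16 ± 5.17 and 57.6 ± 8.26 CPM for Sqle, 60.76 ± 5.84 and 58.18 ± 11.2 CPM for Cyp51 and 197.9 ± 12.6 and 203.7 ± 28.8 CPM for Srebf2. These 4 differences were smaller than the SD within an age. Idi1 had 15.68 ± 2.60 and 12.62 ± 4.41 CPM, a log2 change of -0.29 ± 0.14 that was not called (adjusted p = 0.113), and 11 of 18 brains at 28 months lay below the lowest of 3 months. It was called without 28-month replicate 7, which had the highest level of that age (adjusted p = 0.0419), and at -0.22 ± 0.08 without the 2 libraries that stood apart (adjusted p = 0.0303).

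In the brain 2 of 7 members were thus higher at 28 than at 3 months, against 16.3% of all tested genes, and 0 of 7 were lower, against 12%. Without the 2 libraries 3 of 7 were called from 3 to 28 months (Fdps, Fdft1 and Idi1), against 34.1% of all genes in either direction, and 3 of 7 from 3 to 24 months, against 17.1%. The latter were Fdft1 at 0.15 ± 0.04 (adjusted p = 0.00797), Fdps at 0.19 ± 0.07 (adjusted p = 0.0496) and Srebf2 at 0.14 ± 0.04 (adjusted p = 0.00713). With all brains edgeR called 0 of 7 from 3 to 24 months, against 10.1% of all genes, with 1 of 7 at an unadjusted p below 0.05, while DESeq2 called 0 and limma voom 4. Without 28-month replicate 15 alone the same comparison called 3, namely Idi1, Fdps and Fdft1.

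Between other ages edgeR called 0 of 7 brain members each time. The background was 0.315% of all genes from 3 to 9 months, 0.871% from 3 to 15 months, 0% from 9 to 15 months, 0.732% from 15 to 24 months and 1.09% from 24 to 28 months. An unadjusted p below 0.05 in edgeR was reached by 0, 1, 0, 0 and 0 members in these comparisons, DESeq2 called 0 in each, and limma voom called 1 from 3 to 15 months and 0 in the others. The 0 of 18711 genes called from 9 to 15 months compares with 532 at an unadjusted p below 0.05, and with 4 genes called by DESeq2 and 24 by limma voom.

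Within preps the brain change from 3 to 28 months was uneven. Fdft1 had a log2 change of 0.26 ± 0.07 in prep 1 (called), 0.03 ± 0.12 in prep 2 and 0.75 ± 0.28 in prep 3, the prep of replicate 15, and Fdps had 0.33 ± 0.09 (called), -0.01 ± 0.19 and 1.04 ± 0.345. With the clock score as a covariate the 2 genes had -0.04 ± 0.08 and -0.03 ± 0.10 and neither was called. The clock score was highest in 28-month replicate 15, at 4.89, and the next highest brain was at 2.02. Without the 2 libraries and with the clock score they had 0.11 ± 0.05 and 0.14 ± 0.07, again not called (adjusted p = 0.0747 and 0.174).

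Brain cell type markers were also read from 3 to 28 months, where 16.3% of all brain genes were higher and 12% lower. Of 3 markers of oligodendrocyte precursors 1, Gpr17, was lower at 28 than at 3 months (log2 change -1.62 ± 0.10). The other 2 were not called, at -0.08 and -0.03. The 3 summed to 141.4 to 176.2 CPM at 3 months and 71.79 to 133.4 CPM at 28 months. Of 8 oligodendrocyte markers, the cells that make myelin, 1 was higher at 28 than at 3 months, with sums of 2303 to 11450 CPM and 3566 to 14880 CPM. Of 4 microglia markers 3 were higher, of 6 neuron markers 0 changed, and of 5 astrocyte markers 2 were higher and 2 lower. Summed microglia markers were 228.8 to 275.2 CPM and 233.9 to 502.5 CPM, summed astrocyte markers 3966 to 4971 CPM and 2848 to 6156 CPM, and summed neuron markers 5293 to 6795 CPM and 3490 to 6725 CPM. Their part in the members' values was not tested.

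Of all brain genes tested, 16.3% were higher and 12% lower at 28 than at 3 months, and the counts of these short lists are read beside those shares. Among the other synthesis genes of the brain, with all libraries, 2 of 4 enzymes up to isopentenyl diphosphate were higher at 28 than at 3 months, Acat2 at 0.41 ± 0.10 (edgeR adjusted p = 0.000797) and Mvk at 0.27 ± 0.10 (adjusted p = 0.0324). The 4 summed to 82.87 to 94.41 CPM at 3 months (median 91.36) and 78.93 to 313.7 CPM at 28 months (median 96.75), so single libraries weigh on these values. Of 9 later sterol enzymes 2 were higher and 2 lower, with the lanosterol synthase Lss at 0.26 ± 0.09, Sc5d at -0.22 ± 0.07 and Dhcr7 at -0.21 ± 0.05. Of 5 genes of SREBP handling 1 was higher, Insig1 at 0.23 ± 0.08, and of 10 fatty acid synthesis genes 1 was higher and 2 lower, with Srebf1 at 0.44 ± 0.06, Elovl6 at -0.27 ± 0.08 and Acss2 at -0.19 ± 0.04.

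Of 7 uptake and transport genes in the brain 1 was higher and 3 lower, against 16.3% and 12% of all brain genes, with Npc2 at 0.30 ± 0.08, the lysosomal lipase Lipa at -0.25 ± 0.06 and Lrp8 at -0.18 ± 0.07. Of 4 tested sterol hydroxylases 2 were higher with all libraries, Ch25h at 1.68 ± 0.34 from a mean of 0.7919 CPM and Cyp27a1 at 0.44 ± 0.10. The 6 listed hydroxylases summed to 143.7 to 172.9 CPM at 3 months (median 157.7) and 118.5 to 398 CPM at 28 months (median 153.8). Of 7 genes of other isoprenoid products 1 was higher, Dhdds at 0.13 ± 0.04. Of 6 tested efflux and storage genes edgeR called 0.

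Over the 82 brains the pairwise correlations of the members ranged widely, with r of 0.881 for Fdps with Fdft1 and -0.815 for Idi1 with Fdft1. Over the 80 brains without the 2 libraries the enzyme pairs had r of 0.182 to 0.879, the highest being Idi1 with Cyp51, and pairs with Srebf2 had -0.143 to 0.150. Idi1 with Fdft1, negative over 82 brains, was positive over 80. By mean r over 80 brains the genes most like the members were Msmo1 (0.612), Stard4 (0.601), Hsd17b7 (0.511), Mvd (0.503) and Insig1 (0.503). Over all 82 they were Msmo1 (0.389), Insig1 (0.344), Mvd (0.329), Kctd7 (0.263) and Grm8 (0.26).

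Between the tissues the enzymes were higher in the liver and the regulator was higher in the brain. The log2 ratio of liver to brain at 3 months was 3.92 for Fdps, 3.15 for Idi1, 2.57 for Cyp51, 1.97 for Hmgcs1, 1.89 for Fdft1 and 1.55 for Sqle, and -0.86 for Srebf2. At 28 months it was 3.67, 3.72, 2.92, 2.21, 1.95 and 2.17 for the enzymes in that order, and -0.40 for Srebf2. All 7 were called at both ages, where 90.1% of the 14035 genes tested in both tissues were called at 3 months and 90.4% at 28 months, so the call itself sets no member apart. Scaling by RLE size factors moved the median of all genes at 3 months from -0.08 to 0.03 on the log2 scale.

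Per kilobase of exon, the only scale on which different genes can be compared, Hmgcs1 led in both tissues at 3 months, with 136.1 ± 69.2 CPM per kb in the liver and 53.2 ± 4.98 CPM per kb in the brain (SD, n = 16 and 15). In the liver Cyp51 (53.05 ± 21.2), Fdft1 (41.64 ± 16.95), Idi1 (25.85 ± 11.4), Sqle (18.93 ± 6.51), Fdps (12.46 ± 5.61) and Srebf2 (9.907 ± 1.16) followed in CPM per kb, and each neighbouring pair below Hmgcs1 differed by less than the larger of their SDs. Brain levels per kb followed the order Srebf2 (27.55 ± 1.75), Fdft1 (17.32 ± 1.21), Cyp51 (13.76 ± 1.32), Sqle (9.946 ± 0.933), Idi1 (4.474 ± 0.742) and Fdps (1.26 ± 0.192), with every neighbouring pair apart by more than the larger SD. The places of genes that share exonic bases with others, most of all Fdps (26.71%) and Fdft1 (18.31%), depend on how such reads were counted.

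The change with age was tested against the other tissue as an interaction. From 3 to 24 months edgeR called the liver change above the brain change for 6 of 7 members, and for 18% of genes. With the brain fitted alone, Idi1 was at -0.285, Cyp51 at -0.06 and Hmgcs1 at -0.01 over these ages, none called. By gene the difference on the log2 scale was 1.09 ± 0.25 for Idi1 (edgeR adjusted p = 0.000317), 0.93 ± 0.17 for Sqle (7.65e-06), 0.88 ± 0.22 for Hmgcs1 (0.000796), 0.74 ± 0.18 for Cyp51 (0.000755), 0.62 ± 0.18 for Fdft1 (0.00603) and 0.44 ± 0.08 for Srebf2 (1.61e-05). Fdps, at 0.48 ± 0.23, was not called (adjusted p = 0.105) with all libraries and was called without the 2 brain libraries, at 0.57 (adjusted p = 0.0214), and with the mouse as a block in limma, at 0.73 (adjusted p = 0.00853). From 3 to 28 months edgeR called the liver change above the brain change for 3 of 7, and for 27.2% of genes. The difference was 0.62 ± 0.17 for Sqle (adjusted p = 0.00142), 0.56 ± 0.25 for Idi1 (0.0496) and 0.47 ± 0.08 for Srebf2 (1.14e-06). With each tissue fitted alone, Idi1 had opposite signs, 0.24 in the liver and -0.295 in the brain, neither called. The interaction call of Idi1 rested on the setting: it was lost without the 2 brain libraries (0.49, adjusted p = 0.0551) and with RLE size factors (0.53, adjusted p = 0.063), and the value was 1.09 with the mouse as a block in limma (adjusted p = 0.023). That block called Cyp51 as well (0.51, adjusted p = 0.0284).

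Brain and liver levels of the same mouse were compared to ask whether a mouse high in one tissue was high in the other. Over 82 mice with both tissues, with the means of age and prep removed, Pearson's r of a member's liver and brain log2 CPM was -0.164 (Idi1) to 0.14 (Fdps) and Spearman's rho -0.112 (Idi1) to 0.188 (Srebf2). None of the 7 was called by either measure in a permutation test of 100000 permutations within age, two-sided and adjusted over 14035 genes (lowest adjusted p = 0.538 by Pearson and 0.465 by Spearman), where 1.93% of genes were called by Pearson. The 7 unadjusted p were 0.113 or higher by Pearson and 0.0956 or higher by Spearman. Within preps 1, 2 and 3 (28, 28 and 26 mice) r of Srebf2 was 0.416, -0.143 and -0.109 and that of Idi1 -0.264, 0.158 and -0.28, with no member called. Without the 2 mice farthest from the brain median of each gene, r was -0.163 (Idi1) to 0.254 (Srebf2). Without the mice of the 2 brain libraries that stood apart, which were also the farthest from the brain median for Srebf2, its r was 0.254 and its rho 0.261 (permutation p = 0.0252 and 0.0195, adjusted p = 0.262 and 0.243).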

How the data were processed

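Gene counts were made by the authors and deposited as 1 table per tissue, whole reads per Ensembl gene. Per the submitters' processing notes, the tools were cutadapt 2.8, HISAT2 2.1.0, SAMtools 1.9 and featureCounts (Subread 2.0.1), with builds GRCm38.p6 and mm10; the annotation, the strand setting and the handling of shared reads are not given in the sources used here. Unused columns numbered 0. Of 55471 identifiers 55144 had a symbol.

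From the deposited counts, genes were filtered by filterByExpr, scaled by TMM and tested with edgeR 4.0.16 (R 4.3.3, two-sided quasi-likelihood test, age and prep as terms, all ages of a tissue in 1 fit). Adjusted p-values are Benjamini-Hochberg values over all tested genes. CPM in correlations were log2 values with a prior count of 2. The 2 tissues were fitted together for the interaction. DESeq2 1.42.0, limma 3.58.1, numpy 2.4.6 and numba 0.67.0 (Python 3.11.15) served for alternatives and permutations. The fit was tested on simulated data. Intervals of counts cover counting error only.

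The members and all gene lists were chosen with earlier results of these data known. Named genes were all members, up to 3 called genes per list and tissue with the largest change from 3 to 28 months, and the 5 genes most like the members in each tissue (mean of at least 1 CPM), passing over genes not reported here. The clock score is the mean z-score of 7 repressor and output genes minus that of 3 activators, and the fasting score is the mean z-score of 9 genes. Results were also computed with RLE scaling, no low count filter, no prep term, each prep alone, only the ages compared, a replicate block, the clock score, DESeq2, limma voom and leaving out single libraries. Those without the 2 brain libraries, without 28-month livers below 10 CPM of Arntl, without the 7 livers of lowest rank correlation, with the fasting score, leaving out 24-month libraries, and the interaction from 3 to 24 months were chosen after seeing the data.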

Additional observations from a re-analysis of the deposited data

Results flagged for a closer look

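For 6 of the 7 genes the change from 3 to 24 months differed between the tissues by a test of the difference itself. The liver change minus the brain change on the log2 scale was 0.8758 for Hmgcs1, 0.9282 for Sqle, 1.0858 for Idi1, 0.6181 for Fdft1, 0.7378 for Cyp51 and 0.4382 for Srebf2. From 3 to 28 months it was 0.6227 for Sqle, 0.5646 for Idi1 and 0.4675 for Srebf2. For Idi1 the call was lost with RLE size factors (adjusted p = 0.063) and without the 2 brain libraries that stood apart (adjusted p = 0.0551). The value was 1.09 with the mouse as a block in limma, which changed the tool and the block together.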

How the results depend on the processing

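Counts below are members called of 7. In the liver the 7 calls from 3 to 24 months were kept under each alternative run except within prep 1 (4), prep 2 (3) and prep 3 (5). From 3 to 15 months (2) there were 3 with DESeq2, without the 28-month livers below 10 CPM of Arntl or without the 7 livers of lowest rank correlation, 0 without a low count filter and within each prep, 1 with only the 2 ages fitted, the clock score or limma voom, and 4 with the fasting score. From 3 to 28 months (3) there were 1 in prep 1, 1 in prep 2, 5 in prep 3, 5 with the fasting score, and 2 with only the 2 ages fitted, the clock score or limma voom. From 15 to 24 months (2) there were 0 in prep 1, 1 in prep 2, 0 in prep 3, 5 with only the 2 ages fitted, 4 with the fasting score and 5 with limma voom. From 24 to 28 months (4) there were 2 without the filter, 0 in preps 2 and 3, 0 with the clock score, 2 with the fasting score, 0 without the 28-month livers below 10 CPM of Arntl, 2 without the 7 livers of lowest rank correlation, 3 with only the 2 ages fitted, 6 with limma voom, and 2 to 5 leaving out 1 library. Over all ages (7) there were 2 in prep 2 and 2 in prep 3. In the brain, from 3 to 15 months (0) there was 1 with only the 2 ages fitted, without the 2 libraries, without them with the clock score, and with limma voom. From 3 to 24 months (0) these gave 1, 3, 2 and 4, and leaving out 1 library gave 0 to 3. From 3 to 28 months (2) there were 0 in preps 2 and 3, with only the 2 ages fitted, with the clock score and without the 2 libraries with the clock score, and 5 with limma voom. Over all ages (2) there was 1 without the filter, 0 in each prep and with the clock score, and 4 with limma voom.

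Among genes called with all libraries, directions reversed from 3 to 28 months in the brain for Fdps (-0.0108) and Insig1 (-0.0168) within prep 2, and for Fdps (-0.0269), Fdft1 (-0.0401), Lrp8 (0.029) and Mvk (-0.0968) with the clock score. In the liver they reversed for Dhdds from 3 to 28 months in prep 2 (0.0027) and for Fdft1 from 24 to 28 months in prep 3 (0.0532). In the comparisons with 28 months, liver members that were not called also changed sign: from 3 to 28 months Fdps and Hmgcs1 in preps 1 and 2 and with limma voom, and Cyp51 and Idi1 in prep 2; from 24 to 28 months Cyp51, Sqle and Srebf2 in prep 3, and Srebf2 with limma voom. So did uncalled brain members near 0. The causes were not tested; a single prep holds fewer libraries. In the brain library of 11.5 M counts, Idi1 below 0.345 CPM could not be told from none.

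Same-numbered libraries of different ages come from different mice. Their residuals had a median r of 0.010 in the brain (-0.355 to 0.376, 41 of 157 pairs over 0.1) and 0.009 in the liver (-0.584 to 0.375, 33 of 161), and 9 of 82 brains and 5 of 83 livers correlated best with their own number. With the replicate number as a block, the liver called 2 members from 24 to 28 months and the brain 1 over all ages.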
